A study of Mus musculus with 96 samples.

Results

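The p53 pathway genes described here are 10 genes chosen by symbol from the 55487 genes of the count table: Trp53, Trp73, Mdm2, Trp53inp1, Ccng1, Sesn2, Zmat3, Bax, Bbc3 and Phlda3. They were read in 96 single HBCs (horizontal basal cells, the reserve stem cells of the olfactory epithelium, or OE), which were collected as the 2 daughter cells of each of 48 divisions in culture. All cells belonged to 1 group. They came from the OE of wild-type mice aged 6 to 8 weeks, taken 2 days after an injection of methimazole, a drug that destroys the OE and activates HBCs. Every cell had been through this injury and through culture, and uninjured or uncultured cells were not analysed here. The labels name no strain and do not say which mouse or culture a cell came from, so that no test between cells was possible and every value describes these cells. Of the 10 genes, 9 passed a filter on low counts, which asked for a count of 10 in at least 10% of cells and which 14463 genes of the table passed. Trp73 did not pass.

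p53 is a transcription factor that is held at a low level by the ubiquitin ligase Mdm2 and is stabilised when DNA is damaged or when growth is stressed. It then switches on genes that stop the cell cycle, such as Cdkn1a (p21), genes that repair DNA or adjust metabolism, and genes that open the mitochondrial route to apoptosis. Its control is exerted mainly on the protein, so that the Trp53 transcript and p53 activity need not move together. The relative of p53 that defines HBCs is p63, encoded by Trp63, which keeps these cells quiescent.

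Each library held between 29454150 and 44849003 counts over genes (median 36152760), 11403 to 14632 genes with a count, and 1.06 to 5.75% of counts from ERCC spike-in transcripts, which are synthetic RNAs added in equal amount to each lysate. One count stood for 75 covered bases rather than 1 read, and no molecular identifiers were used. The exact intervals given for shares of cells or pairs are binomial (Clopper-Pearson), cover counting error only and treat cells or pairs as independent, although sister cells share a mother. The HBC markers Krt5, Krt14 and Trp63 had 10 or more counts in all 96 cells, with Trp63 ranging from 0.39 to 305 TPM, a level scaled for transcript length and library total. Markers of other OE cells and of blood, vessel and connective tissue cells were at a median of 0 TPM, with Pecam1 at 0.0495 TPM as the exception, and none of the 11 reached 10 counts in more than 5 cells. Kit had no count in any cell. In these libraries 3 counts equal 0.0669 to 0.102 CPM (counts scaled by the library total), but this sets no limit on Kit. A transcript lost before amplification would also give 0.

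The members differed widely in level, and 4 of the 10 had 10 or more counts in every cell, namely Trp53, Ccng1, Bax and Phlda3. The same held for 22.7% of the 14463 genes. In median TPM the order was Bax, Phlda3, Trp53, Ccng1, Mdm2, Sesn2, Zmat3 and Trp53inp1, while Bbc3 and Trp73 were at 0 in most cells. The middle 50% of cells overlapped between each member and the next in this order, with the exception of Phlda3 and Trp53.

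**Figure D1:**
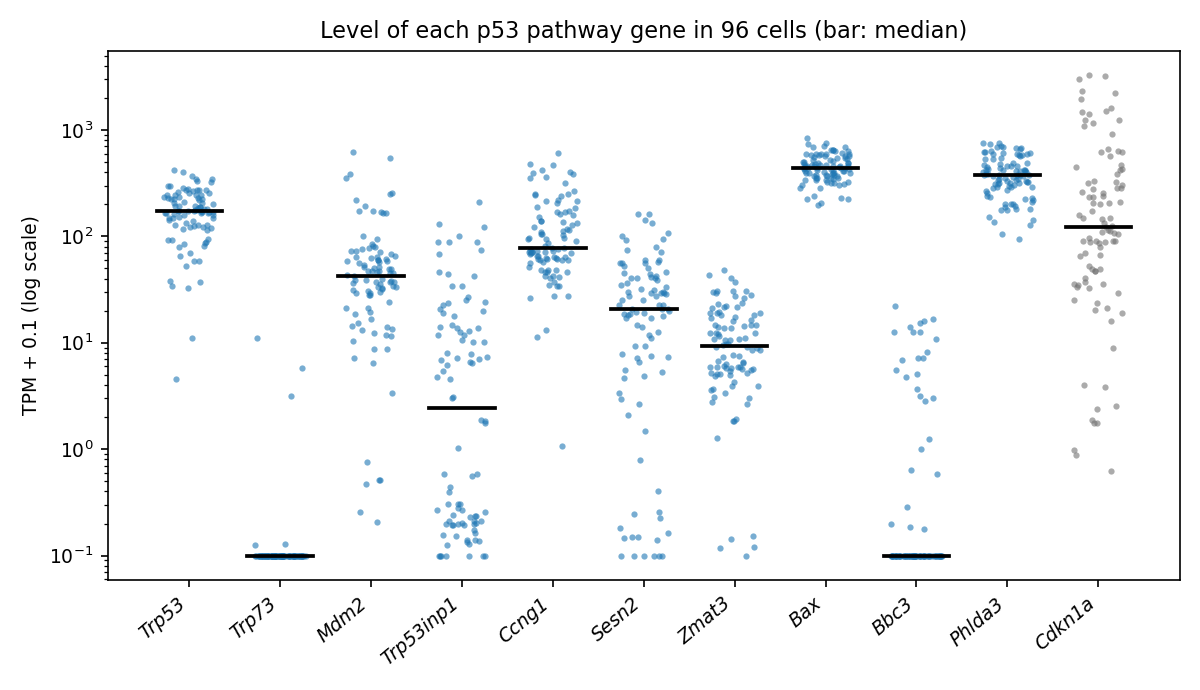
TPM + 0.1 on a log axis for each of 96 cells (points) with the median (bar), for the 10 p53 pathway genes in blue and Cdkn1a in grey. Bax and Phlda3 form narrow bands near their medians of 440 and 374 TPM, Trp53inp1 and Sesn2 spread from 0 to over 100 TPM, and Bbc3 and Trp73 lie at 0 in 68 and 91 cells.

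Trp53 itself was abundant. Its level ran from 4.50 to 421 TPM with a median of 174 TPM, above the median level of 94.4% of the genes past the filter, and its counts ran from 200 to 16214 with a median of 7133.5. In 94 of 96 cells Trp53 had 1000 or more counts, and the 2 others were cell 2 of pair 1 with 200 counts and cell 1 of pair 29 with 439 counts. The deposited coordinates place Trp53 on chromosome 11 from 69580359 to 69591873 of GRCm38, with no overlapping gene, and its processed pseudogene Trp53-ps had a median of 5 counts and at most 41. Trp73 encodes p73, the other close relative of p53 and p63. It had no count in 91 cells, and 3 cells (3.12%, exact 95% interval 0.649 to 8.86%) reached 10 counts, with 1303 counts in cell 1 of pair 33, 574 in cell 2 of pair 11 and 353 in cell 1 of pair 21. No pair held 10 or more counts of Trp73 in both cells.

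The regulators of p53 were variable. Mdm2 encodes the ubiquitin ligase that marks p53 for destruction and is itself switched on by p53. It ranged from 7 to 30178 counts with a median of 2658.5, and from 0.105 to 619 TPM with a median of 42.6 TPM. It had 1000 or more counts in 76 cells and under 100 in 6, and the SD of its log2(CPM + 1) values was 1.90, larger than that of 64.5% of the genes. Trp53inp1 encodes a stress protein that promotes the phosphorylation of p53 and is itself a p53 target. Its counts ranged from 0 to 26987 with a median of 227, and its levels from 0 to 211 TPM with a median of 2.35 TPM. These cells were spread over the whole range, with 18 under 10 counts, 27 from 10 to under 100, 17 from 100 to under 1000, and 34 at 1000 or more. The SD of its log2(CPM + 1) values over cells was 2.91, larger than that of 99.7% of the genes past the filter, whose median SD was 1.58.

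The genes of cell cycle and stress responses came next. Ccng1 encodes cyclin G1, a p53 target that brings the phosphatase PP2A to Mdm2. It ranged from 68 to 51666 counts with a median of 6132, and from 0.965 to 600 TPM with a median of 77.6 TPM. In 94 cells Ccng1 had 1000 or more counts, and the lowest values were 68 counts in cell 1 of pair 35 and 868 in cell 1 of pair 34. Sesn2 encodes sestrin 2, which restrains the growth kinase complex mTORC1 when leucine is scarce and answers to both p53 and the amino acid response. It ranged from 0 to 11648 counts with a median of 1518, and from 0 to 163 TPM with a median of 20.7 TPM, and 12 cells were under 10 counts. The gene Gm12981 lies within Sesn2 on the same strand and had at most 278 counts, and the libraries do not mark strand. Zmat3 encodes a zinc finger protein that binds RNA. It ranged from 0 to 7674 counts with a median of 1432, and from 0 to 47.9 TPM with a median of 9.23 TPM, and was under 10 counts in 4 cells.

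Of the 3 members tied to cell death and survival, Bax and Phlda3 were abundant in every cell and Bbc3 was mostly at 0. Bax, which forms pores in the outer mitochondrial membrane, was the most even member, with 4329 to 16054 counts (median 8821.5) and 198 to 838 TPM (median 440 TPM). The SD of its log2(CPM + 1) values was 0.44, and 8.40% of the genes had a smaller one. Phlda3 encodes a PH domain protein that keeps the survival kinase Akt off the membrane. Its counts ran from 3050 to 24926 with a median of 11561, and its levels from 94.1 to 758 TPM with a median of 374 TPM. Bbc3 encodes PUMA, the BH3-only protein that sets off the pore formers. It had no count in 68 cells, and 23 cells (24.0%, exact 95% interval 15.8 to 33.7%) reached 10 counts, with at most 546 counts in cell 1 of pair 23. At this depth a Bbc3 value of 0 cannot be told apart from a transcript lost before amplification, because ERCC transcripts with a mean TPM within 2-fold of that of Bbc3 were under 10 counts in 46 to 92 of the 96 cells.

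The bases before the gene start of each member were searched for the p53 half-site consensus, the palindromic motif of 10 bases of which p53 binds 2 copies. Of the 10 members, 8 had an entry among the RefSeq promoters of GRCm38.p6, and Trp53inp1 and Zmat3 had none. In the 250 bases before the start, a half-site without a mismatch was found in Ccng1, Bax, Mdm2 and Trp53. It was not found in the windows of Phlda3, Sesn2, Trp73 or Bbc3. Such a half-site was present in 7.13% of the 32851 windows of this length. Whether a half-site goes with how the members moved over the cells was not tested. The 4 windows with a match are shown. They run from 5′ to 3′ in the direction of the gene, with the half-site in capitals.
Ccng1, chr11:40755287-40755536, minus strand: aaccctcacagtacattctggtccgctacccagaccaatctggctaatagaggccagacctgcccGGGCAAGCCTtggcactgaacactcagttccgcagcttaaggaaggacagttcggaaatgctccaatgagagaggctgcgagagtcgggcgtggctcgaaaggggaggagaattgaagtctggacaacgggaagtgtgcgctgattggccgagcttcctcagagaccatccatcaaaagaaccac
Mdm2, chr10:117710759-117711008, minus strand: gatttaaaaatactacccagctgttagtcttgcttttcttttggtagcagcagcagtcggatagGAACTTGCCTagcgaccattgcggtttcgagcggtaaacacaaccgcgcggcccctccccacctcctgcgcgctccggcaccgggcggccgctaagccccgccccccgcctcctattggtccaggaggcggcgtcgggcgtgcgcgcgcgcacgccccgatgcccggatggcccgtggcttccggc
Bax, chr7:45466899-45467148, minus strand: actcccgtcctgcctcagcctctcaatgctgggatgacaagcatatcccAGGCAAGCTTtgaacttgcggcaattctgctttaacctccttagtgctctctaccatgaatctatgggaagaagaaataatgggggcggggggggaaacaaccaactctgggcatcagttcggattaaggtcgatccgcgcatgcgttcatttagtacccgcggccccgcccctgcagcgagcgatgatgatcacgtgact
Trp53, chr11:69580109-69580358, plus strand: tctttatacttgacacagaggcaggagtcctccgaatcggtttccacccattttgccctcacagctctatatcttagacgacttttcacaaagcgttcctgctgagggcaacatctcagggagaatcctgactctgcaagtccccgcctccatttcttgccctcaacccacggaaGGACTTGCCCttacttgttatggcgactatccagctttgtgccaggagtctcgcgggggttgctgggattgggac

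In these windows the half-site began 185 bases before the start in Ccng1, 186 in Mdm2, 201 in Bax and 75 in Trp53. With both half-sites counted, separated by 0 to 13 bases, the best match in Ccng1 was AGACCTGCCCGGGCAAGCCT with no base between its parts and 1 mismatch, and the best match in Bax had 1 base between its parts and 1 mismatch. A pair of half-sites with at most 1 mismatch was found in 0.898% of all windows. A pair with at most 3 mismatches was found in 39.6% of windows, and it was present in a window of Trp73 (2 mismatches), in windows of Bbc3 (3) and in Trp53 (3). The best-known p53 site of Mdm2 lies in its first intron, which these windows do not cover. A match describes letters, and binding was not measured.

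Sister cells were compared on counts scaled by the ERCC transcripts, and a pair was counted as different when the higher value, with 1 added to each, was at least 1.5 times the lower. Trp53inp1 differed in 45 of 48 pairs (93.8%, exact 95% interval 82.8 to 98.7%), Sesn2 and Zmat3 in 39 each, Mdm2 in 36, Trp53 and Ccng1 in 26 each, Bbc3 in 25, Bax and Phlda3 in 21 each (43.8%, interval 29.5 to 58.8%) and Trp73 in 4. The median over the 10 members was 26 pairs. Over all combinations of a pair with a gene past the filter, 65.2% differed by as much. Scaled by the library total in place of the ERCC transcripts, 53.7% did, and the counts became 35 for Trp53inp1, 39 for Mdm2, 19 for Bax and 26 for Phlda3.

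These shares have to be read beside the error of the measurement, because ERCC transcripts are equal in both sisters by design. ERCC transcripts whose mean TPM lay within 2-fold of that of Trp53 differed in 14.6 to 60.4% of pairs, against 54.2% for Trp53. For Mdm2 the range was 20.8 to 83.3%, against 75%, and for Phlda3 it was 14.6 to 50%, against 43.8%. For Trp53inp1 it was 60.4 to 87.5% over 11 transcripts, against 93.8%. The ERCC transcripts set beside Trp53, Bax and Phlda3 had 10 or more counts in every cell. They were therefore among the 22 used for the scaling itself, and ranges taken from them may understate the error. With ERCC scaling and a pseudocount of 1, Trp53inp1 alone of the 10 had a share above its range, and the other 9 lay within theirs. With a pseudocount of 10, Trp53inp1 differed in 41 pairs in place of 45. On the library total the share of Trp53inp1 was 72.9%. The ranges were not taken under either of these settings, so whether Trp53inp1 lay above its range there was not tested.

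The largest differences were far above 1.5-fold. In pair 1, Trp53 had 13759 counts in cell 1 and 200 in cell 2, a ratio of 48.9 after scaling, and it was the only pair over 10-fold for Trp53. The same 2 cells had 2852 and 30 counts of Mdm2, 8502 and 1007 of Ccng1, and 3676 and 4 of Sesn2. Zmat3 went the other way in this pair, with 345 and 2832 counts, and Bax was level at 10243 and 10699 counts. The library of cell 2 had 40928162 counts, 12677 genes and a mitochondrial share of 2.36%, against 40236161 counts, 12262 genes and 1.71% in cell 1, and the part of library quality in the difference was not tested.

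For Bax no pair was more than 3.29-fold apart and for Phlda3 none more than 2.80-fold. Trp53inp1 was over 10-fold apart in 26 pairs, beside 19 to 32 pairs for ERCC transcripts of like mean level. In 31 pairs both sisters had 10 or more counts of Trp53inp1, in 16 pairs 1 sister had, and in 1 pair neither had. In Bbc3, 1 pair had 10 or more counts in both sisters and 21 pairs in 1 sister.

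**Figure D2:**
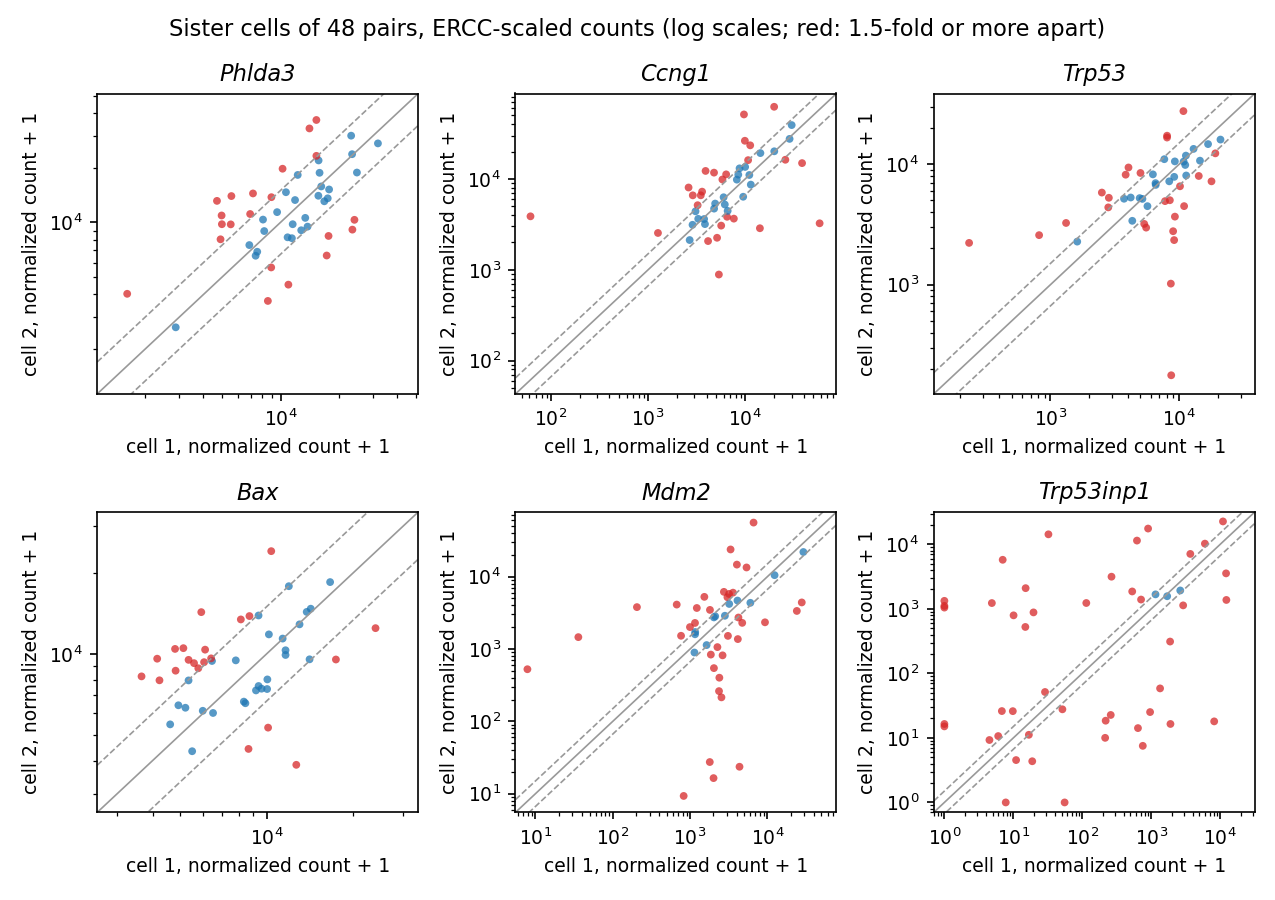
ERCC-scaled counts plus 1 of cell 1 against cell 2 of each of 48 pairs for 6 members, on log axes, with the line of equality (solid) and the 1.5-fold limits (dashed). Pairs 1.5-fold or more apart are red. They number 21 for Phlda3 and Bax, 26 for Ccng1 and Trp53, 36 for Mdm2 and 45 for Trp53inp1, and the lowest point for Trp53 is pair 1.

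How alike sisters were, relative to the spread over all cells, was read from the intraclass correlation of log2(CPM + 1) over the 48 pairs, which is 1 when sisters are equal and 0 when they are no more alike than cells of different pairs. Phlda3 had the highest value at 0.50, above that of 95.7% of the genes past the filter. Ccng1 followed at 0.36 (88.3%) and Trp53inp1 at 0.33 (85.5%). Trp53 was at 0.21, Mdm2 at 0.20 and Sesn2 at 0.19, and Bax at 0.088, Zmat3 at 0.059, Trp73 at 0.0063 and Bbc3 at -0.20 were lower. Values of 0.3 or more were thus reached by 3 of 10 members, and by 17.8% of the 14463 genes, whose median was 0.111.

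For Trp53 the value was lowered by pair 1, and it was 0.43 when that pair was left out. The cells carry deposited names that fall into 12 sets of 8 cells, and whether a set was handled together was not stated. Pairs lie within sets, and when the mean of each set was removed Phlda3 was at 0.39, Ccng1 at 0.21, Trp53inp1 at 0.20 and the median over the 10 members fell from 0.198 to 0.0456, with the median over all genes at -0.0377. The part of the sets in these values was not tested further.

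**Figure D3:**
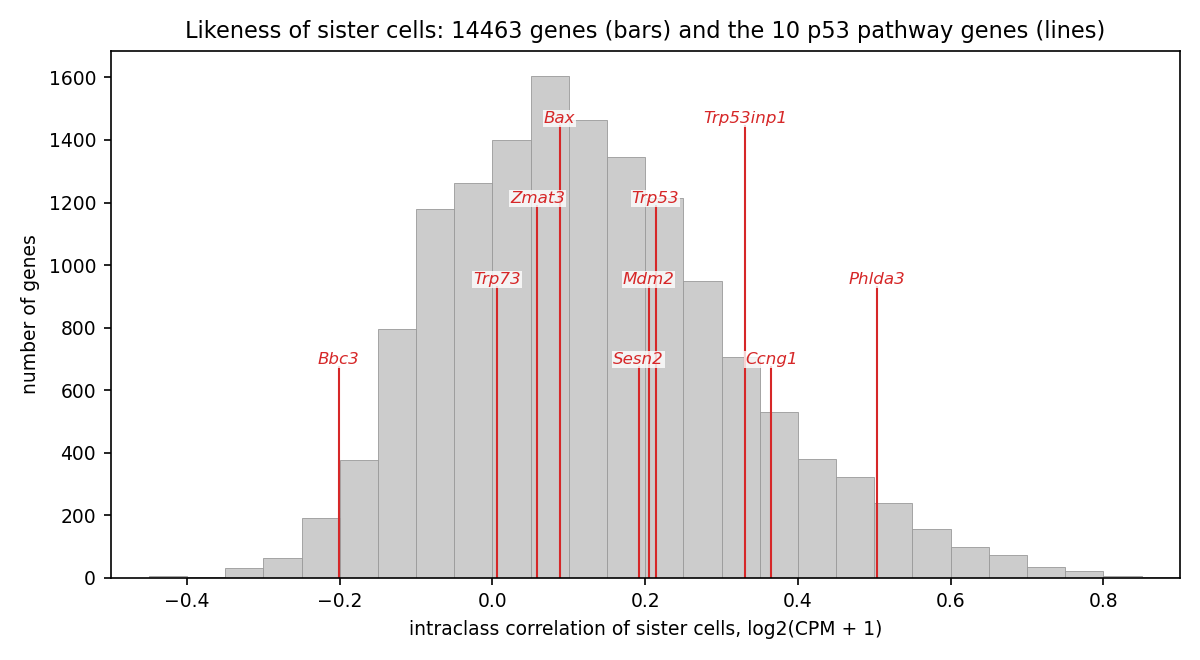
Number of genes (vertical axis) by intraclass correlation of sister cells on log2(CPM + 1) (horizontal axis) for the 14463 genes past the filter, with the 10 members as red lines. Phlda3 lies in the right tail at 0.50, Ccng1 and Trp53inp1 at 0.36 and 0.33, and Bbc3 in the left tail at -0.20.

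Members were next compared with each other over the 96 cells by Spearman correlation of log2(CPM + 1). The cells share depth, amplification and, for sisters, a mother, so that the values are descriptions. Of the 45 combinations of 2 members, 12 had a correlation of 0.3 or more, and 39 were above 0, with a median of 0.167. Among all combinations of a member with another gene past the filter, 0.597% reached 0.3. The share above 0 was not taken there, and the median by member ran from -0.0073 (Phlda3) to 0.026 (Trp53). The highest of the 45 were Ccng1 with Trp53inp1 (0.55), Ccng1 with Mdm2 (0.49), Mdm2 with Trp53inp1 (0.41) and Mdm2 with Zmat3 (0.36). Ccng1 and Mdm2 each had 5 other members at 0.3 or more, and Trp53inp1 and Phlda3 had 4.

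On the CPM scale Trp53 stood apart from these combinations. Its highest correlation with another member was 0.17, with Sesn2 and with Ccng1, and it was 0.041 with Mdm2 and -0.059 with Zmat3. Trp73 and Bbc3, which were at 0 in most cells, also had no member at 0.3 or more, and at such counts a low value carries little. Cdkn1a, the cell cycle inhibitor p21 and the best known p53 target, was not a member. It reached 0.3 with 6 of the 10, at 0.53 with Ccng1, 0.52 with Trp53inp1, 0.42 with Zmat3, 0.41 with Mdm2, 0.36 with Phlda3 and 0.33 with Sesn2. With Trp53 it was at 0.16. How many of all genes reached 0.3 with Cdkn1a was not counted. The 6 of 10 thus cannot be read as a trait of the members. Cdkn1a itself ran from 13 to 106378 counts with a median of 3842.5.

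**Figure D4:**
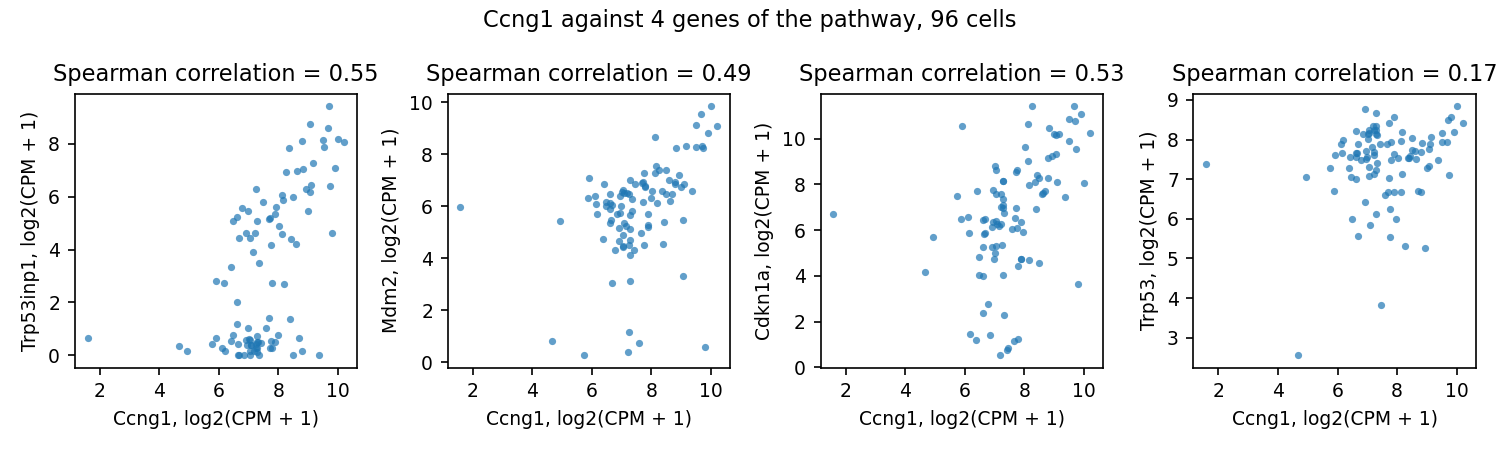
Ccng1 against Trp53inp1, Mdm2, Cdkn1a and Trp53 in 96 cells, as log2(CPM + 1) on both axes, with Spearman correlation above each panel. The Spearman correlation is 0.49 to 0.55 for Trp53inp1, Mdm2 and Cdkn1a and 0.17 for Trp53, and cell 2 of pair 8, with the fourth highest Ccng1, has Mdm2 at 0.60, while cell 1 of that pair has Trp53inp1 at 0.

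A few cells were high in many members at once. Of the 8 members other than Trp73 and Bbc3, cell 2 of pair 17 was among the 10 highest cells for 7, and both cells of pair 21 and cell 2 of pair 46 for 6 each, while 60 cells were among them for none. The same counts were not taken for other sets of 8 genes, so that they cannot be read as a trait of the members. Cell 2 of pair 17 had 51666 counts of Ccng1, 23955 of Mdm2, 11536 of Trp53inp1 and 53345 of Cdkn1a. Its sister had 6386, 2196, 408 and 4215, lower for each of these 4 genes, while Trp53 had 14806 and 11015 counts in the 2 cells. In pair 21 both daughters were high, with 28120 and 32842 counts of Ccng1, 12151 and 12487 of Mdm2, and 71578 and 68599 of Cdkn1a.

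Cell 2 of pair 46 had the highest Mdm2 of all, 30178 counts, with 33586 of Ccng1 and 37 of Trp63, the lowest Trp63 count of the 96 cells. Its sister had 4423 counts of Mdm2, 13270 of Ccng1 and 19637 of Trp63. Without pairs 17, 21 and 46, which were left out after their values were seen, 6 of the 45 combinations reached 0.3, with 0.591% over all genes, and the median was 0.0844. Ccng1 with Trp53inp1 was then at 0.49, Ccng1 with Mdm2 at 0.41 and Ccng1 with Cdkn1a at 0.47.

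Several combinations also moved together between sisters. On the differences between the 2 cells of each pair, 8 of the 45 combinations reached 0.3, beside 2.06% of the combinations of a member with any gene. Ccng1 with Sesn2 was at 0.50, Ccng1 with Trp53inp1 at 0.42 and Ccng1 with Mdm2 at 0.22. For the 28 combinations of the 8 members other than Trp73 and Bbc3, both genes were 1.5-fold apart by CPM in 543 cases, counted over pairs and combinations, and the same sister was the higher in both in 349 of them (64.3%). These cases share pairs and genes and are not independent. The same share was not taken over other genes, so that 64.3% cannot be read as a trait of the members. The same sister was the higher more often than not in 23 of the 28 combinations. For Ccng1 and Trp53inp1 it was 18 of 20 pairs, for Ccng1 and Sesn2 19 of 23, and for Ccng1 and Mdm2 14 of 23. For Trp53 it was 12 of 19 pairs with Trp53inp1, 10 of 15 with Ccng1, 9 of 13 with Phlda3, 10 of 19 with Mdm2, 10 of 20 with Sesn2, 9 of 18 with Zmat3 and 3 of 7 with Bax. The lowest shares also included 6 of 14 pairs for Bax with Trp53inp1 and with Sesn2.

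The scaling changed how many combinations passed. On ERCC-scaled counts 23 of 45 reached 0.3, but so did 8.96% of the combinations of a member with any gene. The spike-in factor of a cell enters all its genes alike, and its part in this rise was not tested. Trp53 with Bax moved from -0.050 to 0.37 and Trp53 with Phlda3 from 0.071 to 0.35, whereas Ccng1 with Trp53inp1 moved from 0.55 to 0.57. Trp53 also moved from 0.17 to 0.37 with Sesn2 and from 0.17 to 0.35 with Ccng1. Correlations with library measures on the CPM scale were smaller than the leading ones among members. Sesn2 had 0.31 with the number of genes detected and -0.27 with the ERCC share, and Ccng1 had -0.27 with the library total and 0.26 with the mitochondrial share. On pair means Sesn2 had 0.45 with the genes detected and -0.43 with the ERCC share. On differences within pairs the ERCC share had 0.36 with Ccng1 and 0.33 with Sesn2. With the other members it ran from -0.098 (Trp53) to 0.27 (Bbc3). The part of the library measures in the correlations was not tested.

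**Figure D5:**
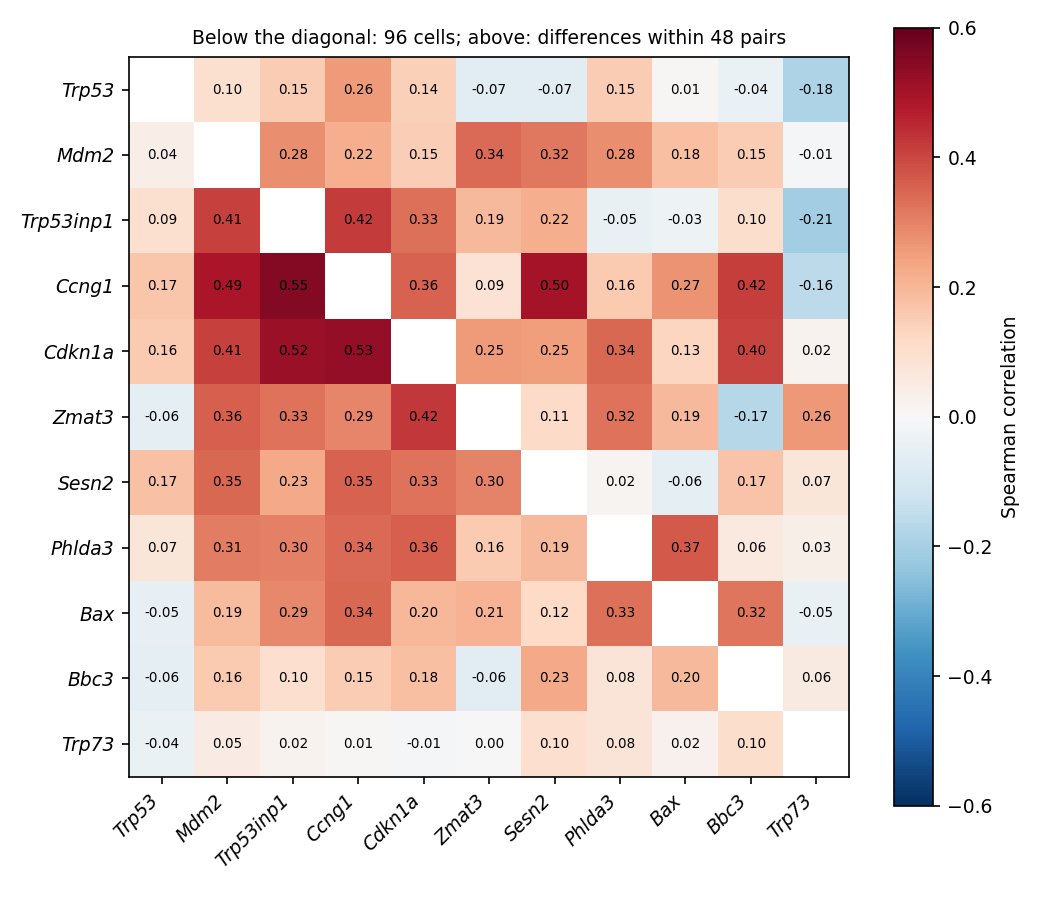
Spearman correlations on log2(CPM + 1) among the 10 members and Cdkn1a, over 96 cells below the diagonal and over the differences within 48 pairs above it (colour scale from -0.6 to 0.6). The block of Mdm2, Trp53inp1, Ccng1 and Cdkn1a runs from 0.41 to 0.55 over cells, and the Trp53 column stays at or below 0.17.

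The 3 genes most like each member over the 96 cells were listed from all genes past the filter. Ccng1 and Btg2 recurred, the latter an antiproliferative p53 target with a median of 1287 counts. Btg2 was among the 3 for Mdm2 (0.43), Trp53inp1 (0.53) and Phlda3 (0.40). Ddit4l led for Trp53inp1 (0.58) and Zmat3 (0.49), and Notch1, a receptor of cell fate signalling, stood second for both Ccng1 (0.57) and Mdm2 (0.44). The uncharacterised 9530053A07Rik led for Ccng1 (0.57) and Bax (0.42). Trp53 was nearest to S100a10 (0.50), Serpinb10 (0.49) and the pseudogene Hspd1-ps3 (0.49), none of which stood beside another member. Phlda3 was nearest to Capzb (0.43), Sesn2 to Dglucy (0.44), Bbc3 to Tlr2 (0.47), which reached 10 counts in 11 cells, and Trp73 to H2bc21 (0.47), which reached it in 12. On ERCC-scaled counts 13 of these 30 places kept the same gene. On differences within pairs the 30 correlations ran from 0.0055 (Btg2 with Phlda3) to 0.56 (Tlr2 with Bbc3). Btg2 was there at 0.34 with Trp53inp1 and at 0.21 with Mdm2.

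Correlations of the members with Trp63 and with the proliferation gene Mki67 were taken over the 96 cells. With Trp63 they ran from -0.28 for Mdm2 to 0.081 for Phlda3, and Ccng1 was at -0.20 and Zmat3 at -0.18. On ERCC-scaled counts these became -0.080 for Mdm2, -0.053 for Ccng1 and -0.014 for Zmat3, and on pair means they were -0.44, -0.30 and -0.35. With Mki67 they ran from -0.20 for Bax to 0.16 for Trp53, and Cdkn1a was at -0.24. On differences within pairs Bbc3 reached -0.40 with Mki67, and with 68 cells at 0 this rests on few cells. Genes of the integrated stress response, which Atf4 commands when amino acids or protein folding fail, were compared as a list of 6. Their mean log2(CPM + 1) had a correlation of 0.36 with Bbc3, which was at 0 in 68 cells, 0.24 with Sesn2 and 0.22 with Phlda3. It lay between -0.10 (Ccng1) and 0.11 (Bax) for the other 7 members. On differences within pairs Bbc3 was at 0.38, Ccng1 at 0.32, Mdm2 at 0.27 and Sesn2 at 0.082. Of the 60 combinations of a member with 1 of these genes, 3 reached 0.3, beside 0.597% of the combinations of a member with any gene past the filter, and the median was 0.0801. They were Ddit3 (CHOP) with Bbc3 (0.39) and with Mdm2 (0.34), and Chac1 with Sesn2 (0.31).

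The rest of the pathway was covered by 57 other genes in 5 lists, of which 55 passed the filter on low counts. Cdkn2a, whose product Arf blocks Mdm2, was at 0 in 91 cells and did not pass, nor did Rprm, which had no count in any cell. Of the 55, 11 (20%) had an intraclass correlation of 0.3 or more, near the 17.8% of all genes, and the median was 0.110, beside 0.198 for the 10 members and 0.111 for all genes. By list, these were 0 of 7 damage sensors and kinases, 1 of 6 regulators of p53, 4 of 11 arrest and growth targets, 3 of 22 apoptosis genes and 3 of 9 repair and metabolism targets. The 3 highest were Ep300 (0.53), a coactivator that acetylates p53, Cdkn1a (0.51) and Perp (0.47), a desmosomal protein of epithelia. The 3 lowest were Fdxr (-0.27), Rrm2b (-0.24) and Pidd1 (-0.22), which reached 10 counts in 39, 49 and 57 cells.

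In level, the apoptosis guard Bcl2l1 (median 108 TPM) was higher than Bcl2 (0.0067 TPM), and Mdm4, the partner of Mdm2, had a median of 28.7 TPM against 42.6 TPM for Mdm2. Among the sensors, Chek2 was highest at 22.2 TPM, and Atm was at 7.64 TPM and Atr at 4.44 TPM. The arrest gene Sfn had a median of 1592 TPM, and Gadd45a of 4.15 TPM. Perp was at 745 TPM, above every member, and differed 1.5-fold between sisters in 15 of 48 pairs. Of the apoptosis genes driven by p53, Pmaip1 (NOXA) had a median of 8.02 TPM and Fas of 0.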

How the data were processed

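Poly(A) RNA of 96 single cells was captured with oligo-dT beads by the G&T-seq protocol and made into libraries with a Nextera XT kit, which does not mark strand. The authors trimmed reads with Trimmomatic 0.39, aligned them with STAR 2.7.11a to GRCm38 with Ensembl annotation and ERCC sequences, and counted genes with StringTie 2.2.1, without pooling cells. The deposited table holds estimated counts as whole numbers, without normalization. For 600 genes of 1 exon the deposited coverage signal times length gave 75 bases per count, within 1 base in 100% of them, so that a count is not 1 read. The deposited TPM values are scaled over genes and ERCC transcripts together.

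Calculations ran in Python 3.11.15 (pandas 2.3.3, numpy 2.4.6, scipy 1.17.1), with figures from matplotlib 3.10.9. ERCC size factors were medians of ratios over the 22 of 92 ERCC transcripts counted in all cells. The filter kept a gene when at least 10% of cells had a count of 10. Ratios and logarithms used a pseudocount of 1. The statistics across genes were tested on simulated data. No test was run, since all cells form 1 group whose mouse and culture are not given. Promoter windows came from RefSeq.

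The members, the lists of pathway genes and the rules for named genes were chosen with earlier results of these data known. Every member, the listed genes, the 3 pathway genes at either end of the intraclass correlations and the 3 genes most like each member could be named. The levels of Bcl2l1, Bcl2, Mdm4, Sfn and the other listed genes with TPM values were picked from the lists after their values were seen, as was each named cell. Alternatives were 4 other scalings of ratios, another pseudocount and cutoff, other filters, removal of set means, leaving out each set and, chosen after seeing the data, leaving out pair 1 or pairs 17, 21 and 46.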

Additional observations from a re-analysis of the deposited data

How the results depend on the processing

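The number of members with 10 or more counts in every cell was 4, and it was 5 at a minimum of 1 count and 3 at 1 TPM. The median number of pairs 1.5-fold apart was 26 of 48 and lay between 21.5 (cutoff of 2) and 27.5 under the other scalings, the other pseudocount and the other cutoff. At a cutoff of 2 the pairs for Trp53 went from 26 to 16, for Bax from 21 to 7 and for Phlda3 from 21 to 13. The median intraclass correlation over members was 0.198, between 0.135 and 0.255 with each set left out in turn, 0.288 on ERCC-scaled counts and 0.0456 with set means removed. For Trp53 leaving out set 1, which holds pair 1, gave 0.47 and leaving out pair 1 gave 0.43, against 0.21. For Bax the ERCC scaling gave 0.31, against 0.088. The median of the 45 correlations was 0.167 and rose to 0.314 on ERCC-scaled counts, and fell to 0.151 on differences within pairs and to 0.0844 without pairs 17, 21 and 46. The correlation of Bax with Mki67 turned from -0.20 to 0.16 on ERCC-scaled counts. That of Mdm2 with Trp63 went from -0.28 to -0.080 and that of Bax with Trp63 from -0.14 to 0.097. ERCC transcripts of like mean level were under 10 counts in 19 to 71 cells for Trp53inp1 (itself under 10 in 18), 7 to 58 for Sesn2 (12), 19 to 78 for Zmat3 (4), 46 to 92 for Bbc3 (73) and 89 to 95 for Trp73 (93).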

Other observations

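Genes whose names carry p53 but that belong to none of the lists were read after their values were seen. Wrap53, which lies head to head with Trp53, had a median of 37.1 TPM and 10 or more counts in 83 cells. Its intraclass correlation between sisters was 0.34. Trp53bp2, an activator of p53 at apoptosis genes, had a median of 10.1 TPM, and the kinase genes Trp53rka and Trp53rkb had 21.5 and 1.48 TPM. Trp53inp2, the relative of Trp53inp1 that acts in autophagy, had a median of 0.287 TPM and reached 78.9 TPM in 1 cell. The long noncoding RNA gene Trp53cor1 had 10 or more counts in 4 cells, and so had Trp53tg5.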
